A study of Bos taurus with 20 samples.

Results

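GNB1 (ENSBTAG00000000215) and GNB2 (ENSBTAG00000006495) encode the beta subunits 1 and 2 of heterotrimeric G proteins. They are 2 of the 24616 genes in the deposited files, and both passed the filter on low counts that left 14293 genes for testing. The pair was selected on values of the study itself. The study compared 9 steers of low with 9 of high residual feed intake and listed both genes as higher in the former. Levels by feed intake are therefore given for them as a description. RNA was sequenced from rumen tissue of 20 steers, Hereford by Aberdeen Angus crosses raised at a single station, in 1 library per steer. All steers were fed the same finishing diet of barley, oats, alfalfa pellets and a supplement with Rumensin in a feedlot, and papillae from the ventral sac of the rumen were taken after slaughter. Residual feed intake (RFI) is the feed an animal eats beyond what its size and growth predict. By the sample labels 9 steers were L-RFI (feed efficient) and 11 were H-RFI (feed inefficient). The age of the steers is not in the sample labels.

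A heterotrimeric G protein consists of an alpha, a beta and a gamma subunit and relays the signal of a G protein-coupled receptor at the inner face of the cell membrane. When the receptor is activated, the alpha subunit exchanges GDP for GTP and parts from the beta-gamma dimer, which itself acts on adenylyl cyclases, phospholipase C-beta, phosphoinositide 3-kinase and ion channels. GNB1 and GNB2 are close paralogs, each folded into a propeller of WD repeats, and both are expressed in most tissues. In the rumen, receptors of this kind include those for short-chain fatty acids, the fermentation products that its epithelium absorbs.

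Between 9622534 and 13960297 reads fell on genes in a library, so that 3 reads corresponded to 0.215 to 0.312 CPM (reads per 1000000 reads on genes). Each column header holds a code whose middle digits are 01, 03 or 12, and these digits divided the libraries into 3 sets of 8, 6 and 6. What the digits stand for is not given in the sources used here, and the codes follow the order of the steer numbers. Each set held steers of both labels (3 L-RFI and 5 H-RFI in set 01, 3 and 3 in each of the others). The labels also follow the order of the steer numbers: steers 11 to 205 are H-RFI and steers 219 to 455 are L-RFI. A difference by label can therefore not be told apart from one by steer number. CPM were rescaled with TMM factors, which are meant to correct each library for the part of its reads that a few very abundant genes take up. These factors ran from 0.690 to 1.15, and the 5 lowest belonged to steers 47, 155, 345, 317 and 105, the first in set 03 and the other 4 in set 12. The same 5 libraries were highest on the first principal component of the 500 most variable genes, with its sign set to rise with GNB2. That component held 82.2% of the variance of those genes, and the 5 libraries are treated below as libraries that stand apart. For 6 of the 18 steers in the study's own list (steers 23, 33, 47, 205, 219 and 455) the group given there was the opposite of the label, and steers 281 and 345 were not in that list.

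The tissue label was compared with markers whose identifiers the study gives. KRT14, PKP1 and ZNF750, genes of stratified squamous epithelium, were at or near 0, with at most 16, 8 and 6 reads in a library. KRT14 had 0 reads in 1 library and ZNF750 in 5. The epithelial genes LYPD3 and PKP3 were present at 2.70 to 8.99 and 17.4 to 66.6 CPM. KDR, a receptor of endothelial cells, lay between 18.3 and 61.0 CPM, and MYL9, a myosin light chain of smooth muscle and myofibroblasts, between 231 and 655 CPM. The papillae were sequenced as whole tissue, so fewer cells of a type and less RNA per cell cannot be told apart in any level given here.

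GNB1 was covered by 4335 to 7793 reads per library, with a median of 6060.5. GNB2 was covered by 2191 to 4145 reads, with a median of 3175. The counting error was thus 1.13% to 1.52% for GNB1 and 1.55% to 2.14% for GNB2, and covers the counting of reads only. Both genes were among the most abundant in reads, since 1.61% of the genes tested had a higher mean CPM than GNB1 and 3.74% had a higher mean than GNB2. Read counts were not corrected for transcript length, so these values do not rank the transcripts of GNB1 and GNB2 against each other. Reads common to the paralogs may have been divided between them or dropped in the counting.

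Over the 20 libraries GNB1 was at 517 ± 59.7 TMM-scaled CPM (SD, n = 20), with a lowest value of 429, a median of 526 and a highest of 618. GNB2 was at 280 ± 99.4 CPM, with a lowest value of 189, a median of 249 and a highest of 542. The coefficient of variation was 11.5% for GNB1 and 35.5% for GNB2. On the log2(CPM + 1) scale the SD between steers was 0.17 for GNB1 and 0.45 for GNB2, both well above the counting errors of 0.019 and 0.026 on that scale. Of the genes tested, 6.85% had a smaller SD than GNB1 and 57.0% a smaller SD than GNB2, and the median gene had 0.40. Without the TMM factors, on CPM as deposited, the SD was 0.11 for GNB1 (1.60% of genes were smaller), 0.26 for GNB2 (25.9% smaller) and 0.40 for the median gene. GNB1 varied less than GNB2 on both scales, but GNB2 lay above the median gene with the factors and below it without them. Within sets the SD of TMM-scaled values was 0.13 for GNB1, 0.35 for GNB2 and 0.34 for the median gene.

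GNB2 and GNB1 were both higher in the libraries of set 12 than in those of set 01. In set 01 GNB2 was at 213 ± 23.8 CPM (SD, n = 8), between 190 and 252 with a median of 207. In set 03 it was at 293 ± 129 CPM (n = 6), between 189 and 542 with a median of 261. In set 12 it was at 355 ± 78.7 CPM (n = 6), between 258 and 465 with a median of 344. All libraries of set 12 lay above all those of set 01, while set 03 spanned the range of both. The highest values, 542, 465 and 425 CPM, came from steers 47, 155 and 345.

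GNB1 was at 474 ± 37.6 CPM in set 01, between 429 and 530 with a median of 463. In set 03 it was at 523 ± 62.4 CPM, between 452 and 609 with a median of 533. In set 12 it was at 568 ± 39.6 CPM, between 522 and 618 with a median of 566. Here the sets overlapped: the lowest library of set 12 was below the highest of set 01. For both genes the means were ordered 01, 03, 12, and neighbouring sets in that order did not differ beyond their spread.

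**Figure D1:**
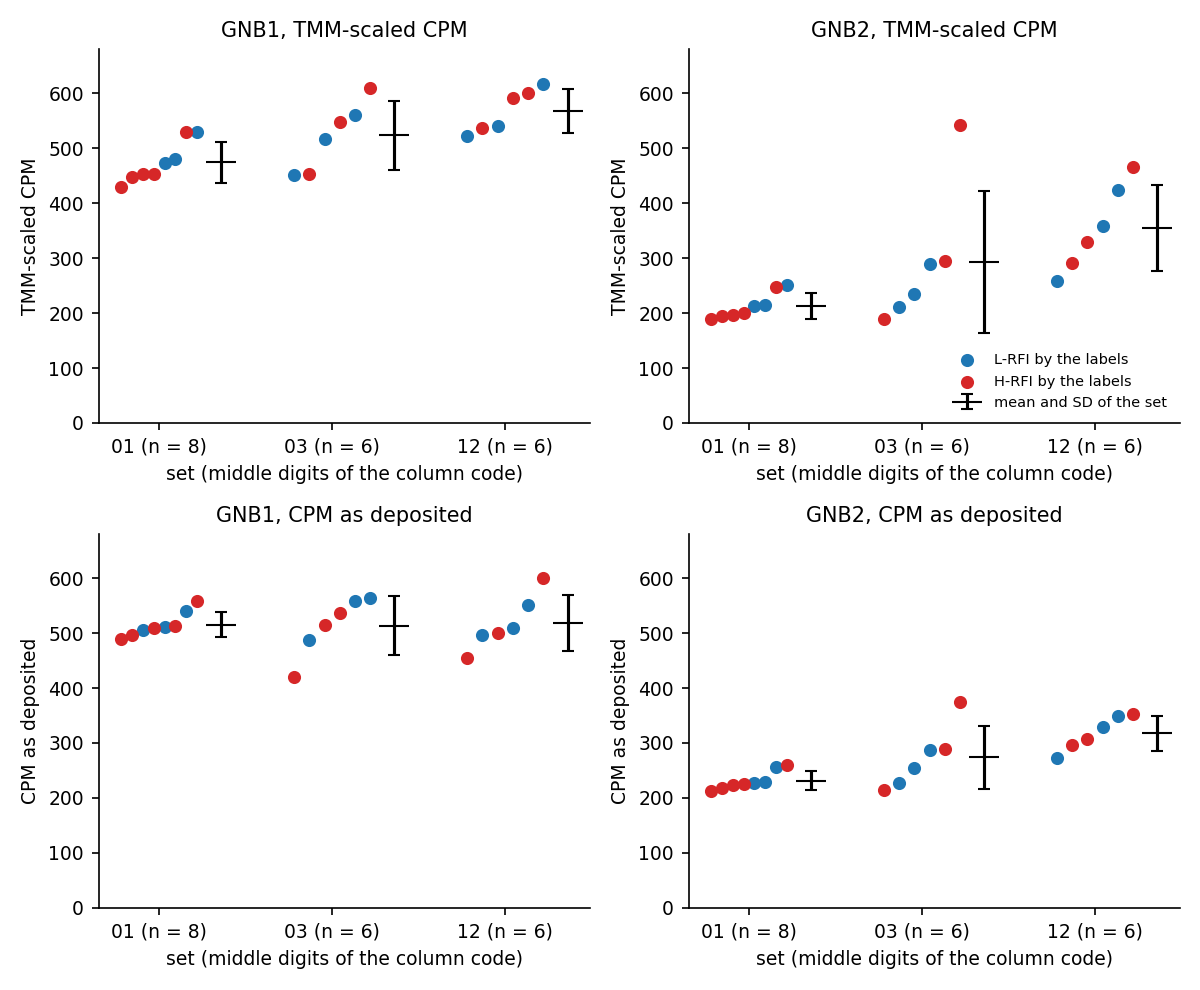
CPM of GNB1 (left) and GNB2 (right) in each of the 20 libraries by set, TMM-scaled (top) and as deposited (bottom), with points coloured by the RFI label and a bar for the mean and SD of the set. GNB2 of set 12 lies above that of set 01 on both scales, whereas GNB1 is 568 against 474 CPM on the TMM scale and 518 against 515 CPM as deposited.

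GNB2 rose by 0.71 (SE 0.18) on the log2(CPM + 1) scale in set 12 over set 01, a 1.63-fold difference with an adjusted p of 0.0047 in limma, adjusted over all 14293 genes. GNB1 rose by 0.26 (SE 0.083), or 1.20-fold, with an adjusted p of 0.012. Both genes thus passed the threshold of 0.05, as did 8926 genes in either direction (62.5% of those tested), of which 4408 were higher in set 12 (30.8%). Against that background the 2 calls say little about the G protein subunits in particular: 33.8% of genes had a larger absolute difference than GNB2 and 72.2% a larger one than GNB1. In set 03 over set 01 neither gene passed. The differences were 0.14 for GNB1 (adjusted p = 0.26 in limma) and 0.37 for GNB2 (adjusted p = 0.21), and 55 genes were called (0.385%). Nor did either pass in set 12 over set 03, where the differences were 0.12 (adjusted p = 0.34 in limma) and 0.34 (adjusted p = 0.27), and 79 genes were called (0.553%). That comparison was sensitive to steer 47, the highest library of set 03 for GNB2. Without this library GNB2 differed by 0.55 (adjusted p = 0.011 in limma) and 7378 genes were called. Leaving it out selects on GNB2 itself, so that adjusted p is no test of the difference.

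The call for GNB1 depended on the scaling. TMM factors take most genes as unchanged, whereas 62.5% of genes were called between sets 12 and 01. Neither scale is therefore given as the right one. With CPM as deposited, GNB1 was at 515 ± 23.1 in set 01 (489 to 558), 513 ± 53.6 in set 03 (420 to 563) and 518 ± 50.6 in set 12 (454 to 600). The difference of set 12 over set 01 was then 0.0046 (SE 0.073, adjusted p = 0.96 in limma). GNB2 as deposited was at 232 ± 17.5 in set 01 (213 to 260), 274 ± 57.3 in set 03 (214 to 374) and 318 ± 31.7 in set 12 (272 to 353). Its difference remained, at 0.45 (SE 0.10, adjusted p = 0.0031), again with no overlap between sets 12 and 01. The median difference of all genes moved from -0.007 with the TMM factors to -0.23 without them, and relative to that median GNB1 was higher by 0.24 and GNB2 by 0.69. Without the factors 8490 genes were called, 2905 higher and 5585 lower in set 12, against 4408 higher and 4518 lower with them.

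Without steers 47, 105, 155 and 317 both genes were still called, as were 6319 genes in all. The differences were 0.29 for GNB1 (adjusted p = 0.027 in limma) and 0.58 for GNB2 (adjusted p = 0.020). This omission kept steer 345, whose TMM factor of 0.823 was below the 0.917 of steer 317 and the 0.931 of steer 105. Both calls ended when steer 345 was left out as well, which left steers 115 and 409 in set 12. GNB1 then differed between sets 12 and 01 by 0.22 (adjusted p = 0.23 in limma) and GNB2 by 0.36 (adjusted p = 0.21). In that fit 7 genes were called. The 5 libraries left out were also the 5 highest for GNB2, at 329 to 542 CPM against at most 295 in the rest. Leaving them out thus selects on GNB2 itself, so the loss of its call is no test of the difference. Some of the markers and the library traits differed between the sets as well. MYL9 rose from 306 to 549 CPM between sets 01 and 12 (adjusted p = 0.0019 in limma). KDR fell from 43.4 to 30.0 CPM (adjusted p = 0.041 in limma), beside 62.5% of all genes called. The epithelial genes LYPD3 and PKP3 did not pass, at 0.043 (adjusted p = 0.84 in limma) and 0.36 (adjusted p = 0.17). The summed level of the 5 epithelial markers was 23.6 to 34.4 CPM in set 01, 25.1 to 76.4 in set 03 and 23.2 to 44.9 in set 12. PKP3 made up most of this sum. The 100 most abundant genes took 20.1% to 23.7% of the reads in set 01, 19.7% to 31.0% in set 03 and 21.6% to 30.6% in set 12. Between 17088 and 17657 genes had a read in set 01, 16165 to 17485 in set 03 and 16479 to 17199 in set 12. The part of any of these in the levels of GNB1 and GNB2 was not tested.

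The ratio of GNB1 to GNB2 within a library does not depend on its scaling. GNB1 had more reads than GNB2 in all 20 libraries, with a ratio of 1.97 ± 0.374 (SD), between 1.12 and 2.40 with a median of 2.12. In set 01 the ratio was 2.23 ± 0.087 (n = 8), between 2.10 and 2.36. In set 03 it was 1.95 ± 0.447 (n = 6), from 1.12 in steer 47 to 2.40 in steer 51. In set 12 it was 1.65 ± 0.307 (n = 6), between 1.29 and 2.03. The ratio was thus narrow in set 01 and wide in the other sets, and sets 12 and 01 did not overlap. The 5 libraries that stand apart had the 5 lowest ratios (1.12, 1.29, 1.45, 1.51 and 1.63), while the other 15 lay between 1.86 and 2.40.

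**Figure D2:**
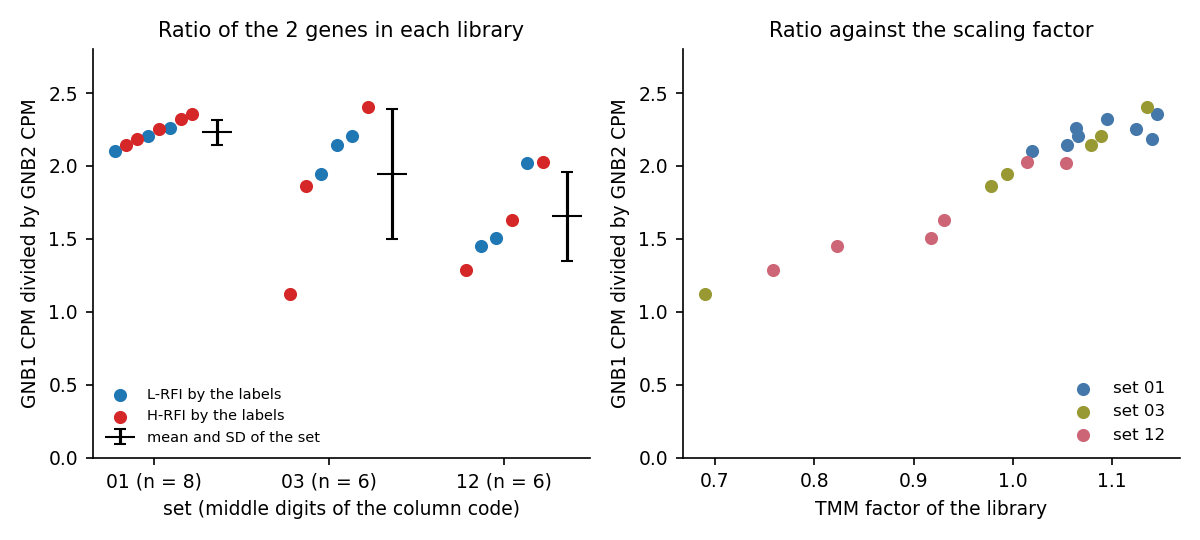
Ratio of GNB1 to GNB2 CPM in each library by set, coloured by RFI label with the mean and SD of the set (left), and the same ratio against the TMM factor of the library, coloured by set (right). The ratio falls from 2.23 in set 01 to 1.65 in set 12, and it is lowest, at 1.12, in the library with the lowest TMM factor, 0.690.

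The log2 ratio was lower by 0.45 in set 12 than in set 01 (0.71 ± 0.26 against 1.16 ± 0.056), a ratio of the ratios of 0.732. The two-sided exact permutation test over steers gave p = 0.000333, the smallest that its 3003 splits allow. After adjustment over the 3 pairs of sets this permutation p was 0.000999. Ratios of other pairs of genes were not computed, and 62.5% of all genes tested were called between these sets in limma. The separation can therefore not be called particular to the paralogs. Between sets 03 and 01 the difference was -0.23 (exact permutation p = 0.042, adjusted 0.063), and between sets 12 and 03 it was -0.21 (exact permutation p = 0.28, adjusted 0.28). Without steers 47, 105, 155 and 317, the log2 ratio of set 12 differed from that of set 01 by -0.30 (exact permutation p = 0.0061, the smallest possible, adjusted 0.018). Without steer 345 as well it differed by -0.14 (exact permutation p = 0.022, the smallest possible, adjusted 0.067). Without steer 47 the difference between sets 12 and 03 was -0.37 (exact permutation, adjusted p = 0.045), and without steer 51 that between sets 03 and 01 was -0.30 (exact permutation, adjusted p = 0.012). Without steer 271 the latter was -0.28 (exact permutation, adjusted p = 0.042), and without steer 47 it was -0.084 (exact permutation, adjusted p = 0.17). Steer 47 had the lowest ratio of set 03, steer 51 the highest and steer 271 the next highest. The libraries that stand apart had the lowest ratios of all. Each of these omissions thus selects on the ratio itself, so the p-values after them are no tests of the difference.

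Whether the genes varied together depended on the scaling, so their correlations are given as a description over libraries of a single tissue. On the TMM scale Pearson's r of GNB1 with GNB2 was 0.90 and Spearman's rank correlation 0.93 (n = 20). On CPM as deposited r was -0.24 and the rank correlation -0.089. Without steers 47 and 155, the farthest from the median of GNB2, r was 0.91 on the TMM scale and 0.31 as deposited (n = 18). Within set 01 the genes went together on both scales, with r of 0.96 and 0.90. Within sets 03 and 12 r was 0.91 and 0.67 on the TMM scale and -0.49 and -0.73 as deposited. Without the 5 libraries that stand apart r was 0.96 on the TMM scale and 0.86 as deposited (n = 15). The sign of r thus turned with scaling in the presence of those libraries, in which GNB2 as deposited was at 307 to 374 CPM and GNB1 at 420 to 509 CPM.

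**Figure D3:**
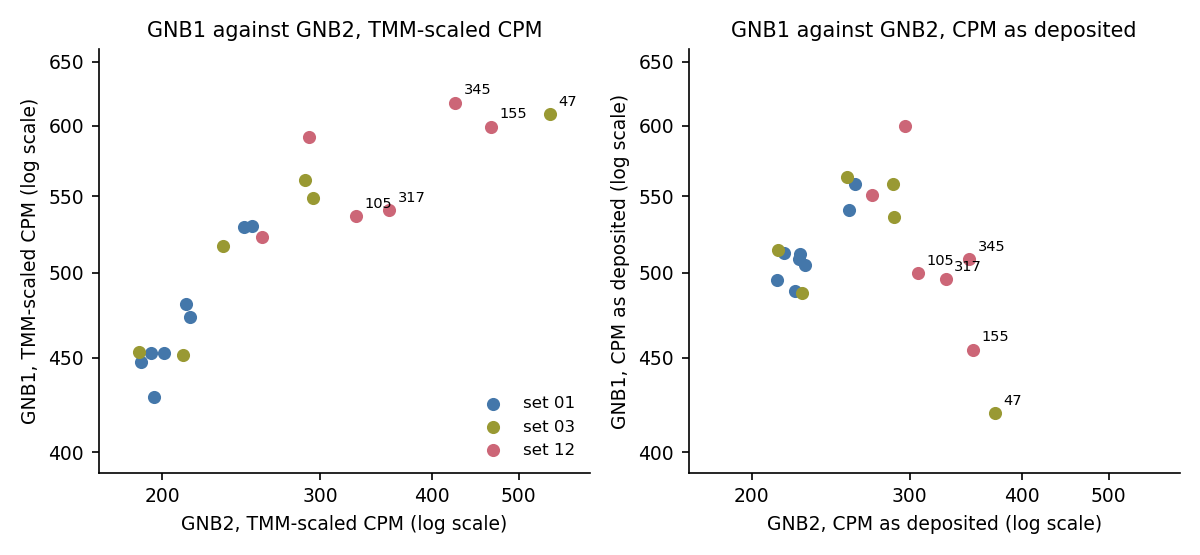
GNB1 against GNB2 in the 20 libraries on log axes, coloured by set, TMM-scaled (left, r = 0.90) and as deposited (right, r = -0.24), with the 5 libraries that stand apart marked by steer number. On the right these 5 lie at high GNB2 with GNB1 between 420 and 509 CPM.

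GNB2 and the ratio varied with the TMM factor on either scale, whereas for GNB1 the sign depended on the scale. On the TMM scale, where values are divided by the factor, r with it was -0.84 for GNB1, -0.98 for GNB2 and 0.98 for their log2 ratio (n = 20). As deposited, r with it was 0.52 for GNB1 and -0.93 for GNB2. With the first principal component, whose sign was set to rise with GNB2, r was 0.83 for GNB1, 0.97 for GNB2 and -0.97 for the log2 ratio. GNB2 was not alone in this: 25.2% of the genes tested had r above 0.8 with it and 28.4% had r below -0.8, and 16.5% correlated with GNB2 more highly than GNB1 did. With GNB1, 26.8% of genes had an absolute r above 0.8, and 1.54% correlated with it more highly than GNB2 did.

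Among the 105 other genes with a symbol in the study's list, those most like GNB2 across the 20 libraries were TMEM147 (r = 0.992), which encodes a membrane protein of the endoplasmic reticulum, PSMB6 (r = 0.990), a catalytic subunit of the proteasome, and UBL5 (r = 0.987), a ubiquitin-like protein. Their r was 0.976, 0.967 and 0.960 on CPM as deposited, so the likeness to GNB2 did not rest on the scaling. Those most like GNB1 were CFL1 (r = 0.949), encoding cofilin, COX8A (r = 0.923), a subunit of cytochrome c oxidase, and GABARAP (r = 0.917), which acts in autophagy. Their r with GNB1 was 0.092, 0.029 and 0.20 as deposited, so that likeness was present on the TMM scale and not on the other. Over all genes tested the most alike was ENSBTAG00000008837 for GNB2 (r = 0.994) and ENSBTAG00000001471 for GNB1 (r = 0.960). Of the 105 genes, 46 had r above 0.8 and 26 below -0.8 with GNB2, beside 25.2% and 28.4% of all genes tested. With GNB1 these counts were 31 and 10, beside 26.8% of all genes with an absolute r above 0.8. The study chose the listed genes by the same contrast as GNB1 and GNB2, so they are not an independent set.

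The study lists GNB1 and GNB2 in pathways with RHOG, a small GTPase, CFL1, which severs actin filaments, and ACTB, the cytoplasmic actin. These genes were chosen by the study on the same steers, so they are no independent evidence of a direction. Between sets 01 and 12 these 3 genes rose, beside 30.8% of all genes called higher in set 12. RHOG rose from 143 to 232 CPM, by 0.69 (SE 0.14, adjusted p = 0.0023 in limma). CFL1 rose from 1543 to 2611 CPM, by 0.75 (SE 0.18, adjusted p = 0.0036). ACTB rose from 5003 to 8658 CPM, by 0.77 (SE 0.22, adjusted p = 0.0063). These differences were close to the 0.71 of GNB2 and above the 0.26 of GNB1. With CPM as deposited these 3 kept their direction, at 0.44, 0.50 and 0.52. None of the 3 passed in the other pairs of sets. The alpha and gamma subunits that pair with GNB1 and GNB2, the other beta subunits and the effectors of the dimer were not analysed here, since identifiers could be paired with symbols for 112 genes only.

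**Figure D4:**
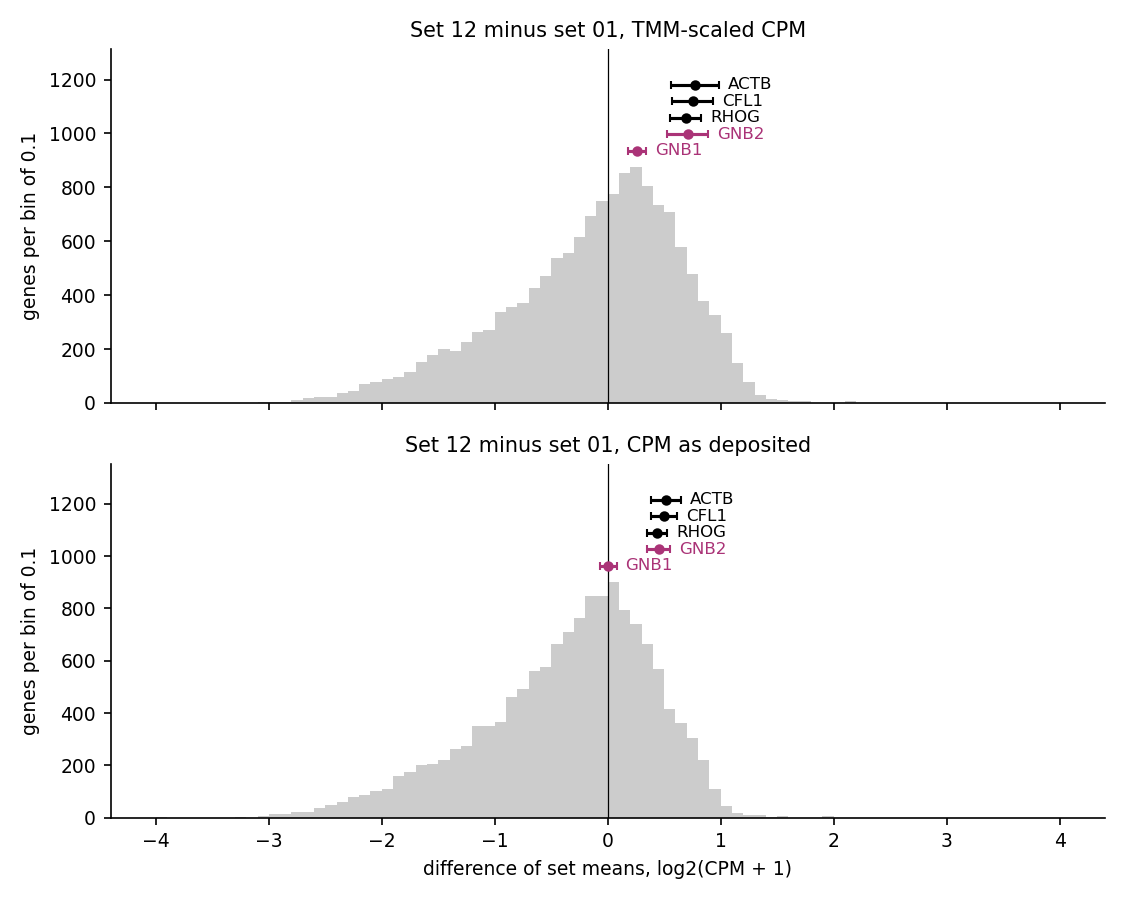
Differences of set 12 minus set 01 in log2(CPM + 1) for all 14293 genes (grey histogram, genes per bin) and for GNB1, GNB2, RHOG, CFL1 and ACTB (points, with bars of 1 SE), TMM-scaled (top) and as deposited (bottom). GNB2 stands at 0.71 beside the actin genes on the top and at 0.45 on the bottom, and GNB1 moves from 0.26 to 0.0046.

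Levels by feed intake are given without a test, since both genes were selected on that contrast. The labels also follow the order of the steer numbers. GNB1 was at 522 ± 50.1 CPM in the 9 L-RFI steers (452 to 618, median 522) and 514 ± 68.7 CPM in the 11 H-RFI steers (429 to 609, median 529). For GNB2 the L-RFI steers had 273 ± 73.8 CPM (211 to 425, median 252) and the H-RFI steers 285 ± 120 CPM (189 to 542, median 247). The groups overlapped almost fully for both genes. The log2 differences, L-RFI minus H-RFI, were 0.03 (SE 0.086) for GNB1 and -0.01 (SE 0.20) for GNB2, and 81.2% and 94.6% of genes had a larger absolute difference. As background over all genes, from which nothing is read for GNB1 and GNB2, limma called 0 of 14293 (0%), with 110 at an unadjusted p under 0.05. edgeR called 0 of 14293, with 163 at that level, and DESeq2 0 of 20063, with 316. With the groups of the study's own list, the differences were -0.02 (SE 0.089) for GNB1 and 0.02 (SE 0.20) for GNB2. Their signs therefore differed between the groupings, each time within 1 SE of 0. Within sets 01, 03 and 12 the labels gave differences of 0.10, -0.07 and -0.04 for GNB1 and 0.14, -0.36 and -0.06 for GNB2. GNB1 had 1.98 ± 0.301 reads per GNB2 read in the L-RFI steers and 1.96 ± 0.44 in the H-RFI steers.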

How the data were processed

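The authors aligned paired-end reads from TruSeq libraries to the bovine genome UMD3.1 with TopHat2 and counted reads per Ensembl gene with HTSeq, and the deposited CPM files hold 1 column per steer, scaled to a total of 1000000. The submitters' processing notes name CASAVA 1.8 and TopHat2 2.0.10. The RNA extraction kit and the RNA input differ between the labels and the published methods. All CPM values corresponded to whole reads (100% within 0.0011 of a read). The filter, the TMM and RLE factors, the read counts and the counting errors were computed from these recovered reads. edgeR and DESeq2 were fitted to them, and limma to the scaled CPM. No pair of libraries agreed within sampling noise (smallest chi-square per degree of freedom 3.45 over 190 pairs).

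Genes were kept with edgeR's filterByExpr (minimum count 10, with the RFI labels as groups), and CPM were scaled by TMM factors. The log2(CPM + 1) values of the 3 sets were fitted together in limma 3.58.1 with trend (R 4.3.3). Adjustment was by Benjamini-Hochberg over 14293 genes, with a threshold of 0.05. Since a pseudocount of 1 was added, fold changes of low genes are understated. The log2 ratio of GNB1 to GNB2 was compared by two-sided exact permutation tests over steers. Groups came from the sample labels. Each library is a separate steer, and p-values set a difference against the spread between steers. Alternatives were CPM as deposited, RLE factors, a pseudocount of 0.1, no filter, edgeR 4.0.16, DESeq2 1.42.0, RFI group or set as a covariate, the groups of the study's list and the omission of libraries. The scripts were tested on simulated data in which few genes were changed. That run does not bear on the scaling where most genes differ. The members, the lists and the tests were chosen with earlier results of these data known. Genes named were both members, 3 pathway genes (a further gene that the rule named is not reported here), the 3 listed genes most like each member and the most alike identifier overall. Symbols came from the study's list (112 genes, 106 tested). The RefSeq table at hand, of another assembly, did not pair these identifiers, so no coordinates or sequences are given.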

Additional observations from a re-analysis of the deposited data

Results flagged for a closer look

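The library of steer 47 stood far from the others of set 03 for GNB2, at 541.573 TMM-scaled CPM against 294.761 in the next highest of the 6 libraries. On CPM as deposited it was also the highest, at 374 against 288, but with a Dixon's ratio of 0.536, below the critical value. In the same library the log2 ratio of GNB1 to GNB2 was 0.168553, against 0.895594 in the next lowest. On the TMM scale and for the ratio, Dixon's ratios were 0.699 and 0.664, above Dixon's critical value for 6 libraries. These were 2 of 20 combinations of a measure and a group of libraries examined, and chance marks about 1 in 20. The 2 values share the GNB2 reads of 1 library. This library also had the lowest TMM factor (0.690), the fewest genes with a read (16165) and the largest share of reads on its 100 most abundant genes (31.0%), and the part of these in its values was not tested. Its label is H-RFI, and the study's list gives L-RFI.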

How the results depend on the processing

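No alternative tried for the fit by feed intake called a gene in limma, edgeR or DESeq2 (28 to 442 genes at an unadjusted p under 0.05). The differences of GNB1 and GNB2 by feed intake, L-RFI minus H-RFI, changed sign: GNB2 from -0.01 to 0.01 as deposited and 0.20 without steers 47, 105, 155 and 317, and GNB1 from 0.03 to -0.02 with the study's list. With CPM as deposited, the GNB1 difference was 0.0046 for set 12 over 01 and reversed to -0.011 for set 03 over 01, 132 genes were called for set 12 over 03, the SD of GNB2 was 0.26 (0.19 within sets) and r of GNB1 with GNB2 reversed to -0.24 (-0.37 within sets). The recovered reads gave 101 and 217 calls for sets 03 over 01 and 12 over 03 in edgeR, and 734 and 1017 in DESeq2. Without steers 47, 105, 155 and 317 there were 18 calls for set 12 over 03, and the SD of the log2 ratio was 0.17. These 4 steers were themselves chosen with earlier results of these data known. Leaving out steer 345 as well, chosen after seeing the data, gave differences of 0.22 (GNB1) and 0.36 (GNB2) for set 12 over 01, 7, 194 and 0 calls (sets 12 over 01, 03 over 01, 12 over 03; 3135, 3383 and 1133 genes at an unadjusted p under 0.05 in limma), an SD of 0.22 for GNB2 and 0.10 for the log2 ratio, and a difference of -0.14 in that ratio between sets 12 and 01. On CPM as deposited those 15 libraries gave 0.16 and 0.30, 7, 192 and 0 calls (1151 at an unadjusted p under 0.05 for set 12 over 03), and SDs of 0.087 for GNB1, 0.17 for GNB2 and 0.10 for the log2 ratio. These fits hold fewer libraries, with 2 in set 12.

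With each library left out in turn, the differences of set 12 over 01 were 0.24 to 0.30 for GNB1 (adjusted p 0.0043 to 0.032 in limma) and 0.63 to 0.81 for GNB2 (adjusted p 0.00033 to 0.017), with 7042 to 9936 calls. For set 03 over 01 they were 0.083 to 0.17 and 0.17 to 0.48, with 17 (without steer 55) to 277 calls (without steer 281). For set 12 over 03 they were 0.10 to 0.18 and 0.25 to 0.55, with 8 (without steer 51) to 7378 calls (without steer 47). The log2 ratio differed by -0.51 to -0.38, by -0.30 to -0.084 and by -0.37 to -0.15 for the same pairs of sets. The causes of these shifts were not tested.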
